A study of Arabidopsis thaliana with 8 samples.

Results

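EIN2 (ETHYLENE INSENSITIVE 2, AT5G03280) is the gene that the ein2-5 allele disrupts, and its transcript was followed through all 8 libraries of the series. It was taken by its locus identifier, as 1 row of the 34133 genes in the deposited table. The series holds endosperm, the nutritive seed tissue around the embryo, dissected with a laser from sections of Arabidopsis thaliana seeds (laser capture), 6 days after pollination. The 4 crosses, written mother first, were ein2-5 x ein2-5, ein2-5 x Col-0, Col-0 x ein2-5 and Col-0 x Col-0, with 2 libraries each; they are written ExE, ExC, CxE and CxC from here on, E for ein2-5 and C for Col-0. Col-0 is the wild type and ein2-5 an ethylene-insensitive loss-of-function line in that background. The labels do not say which name in a cross is the mother, and the first was taken as such. They name no chemical treatment, and do not say whether the 2 libraries of a cross came from separate plants, so p-values measure only the spread between these samples. Only 1 mutant line was used.

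EIN2 is the central transducer of the ethylene signal. It is a protein of the endoplasmic reticulum membrane with an amino-terminal part related to the NRAMP metal transporters and a long carboxy-terminal part that carries the signal. Without ethylene, the receptors keep the kinase CTR1 active and CTR1 phosphorylates EIN2. With ethylene, the carboxy-terminal part is cleaved off, enters the nucleus and also represses translation of the mRNAs of EBF1 and EBF2, so that the transcription factors EIN3 and EIL1 build up. Much of what controls EIN2 therefore acts on the protein, and a transcript level does not report the activity of the pathway. Endosperm is triploid and inherits a double genome dose from the mother and a single one from the father. The 4 crosses thus carried 0 mutant copies in CxC, 1 in CxE, 2 in ExC and 3 in ExE.

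In the TAIR10.1 reference annotation, EIN2 lies on the plus strand of chromosome 5 from position 787428 to 793404. It has 1 annotated transcript of 4851 nt in 8 exons, which encodes 1294 residues. Exon 7 alone holds 54.9% of the transcript, and 80.1% of the transcript is coding. No other annotated gene overlaps it on either strand. The row sums fragments from mutant and wild-type alleles, so it cannot tell maternal from paternal transcripts or mutant from wild-type ones. It is also no check of the genotype labels, because ein2-5 alters the transcript without removing the gene.

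Levels are given in FPKM, which counts fragments relative to transcript length and to the total mapped in the library, as deposited. EIN2 was at 19.7 and 23.7 FPKM in the ExE libraries. It was at 26.2 and 22.2 FPKM in ExC. The CxE libraries had 31.4 and 50.03 FPKM, and the CxC libraries 35.7 and 54.8 FPKM. All 4 libraries with an ein2-5 mother were lower than all 4 with a Col-0 mother, with 26.2 FPKM as the highest of the first set and 31.4 FPKM as the lowest of the second. Libraries with an ein2-5 father and those with a Col-0 father overlapped over most of their range, at 19.7 to 50.03 and 22.2 to 54.8 FPKM.

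**Figure D1:**
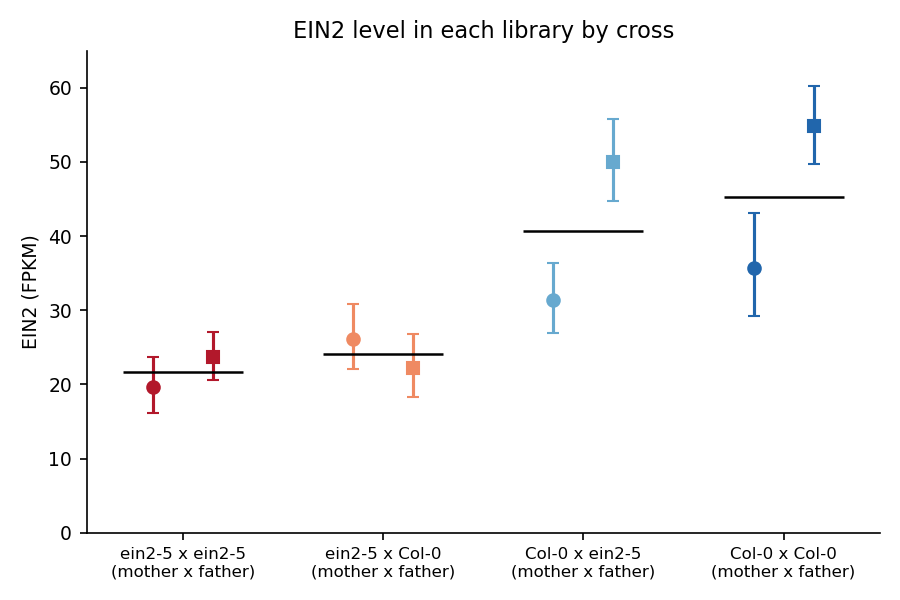
EIN2 level in FPKM (y axis) in each library of the 4 crosses (x axis, mother first). Circles are replicate 1, squares replicate 2 and black lines the mean of 2 libraries. Error bars are the exact Poisson 95% interval of the estimated fragment count, which covers counting error only. Points of both crosses with an ein2-5 mother lie below 27 FPKM and those of both with a Col-0 mother above 31 FPKM. Some error bars overlap across that gap.

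As group means, EIN2 measured 21.7 ± 2.83 FPKM in ExE, 24.2 ± 2.80 FPKM in ExC, 40.7 ± 13.2 FPKM in CxE and 45.3 ± 13.5 FPKM in CxC (SD, n = 2 each). The ExE mean was 47.8% of the CxC mean, and that of ExC was 53.4% of it. CxE reached 89.9% of it. The values of ExE and ExC overlapped, at 19.7 to 23.7 FPKM and 22.2 to 26.2 FPKM, and so did those of CxE and CxC.

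The replicate spread was wider with a Col-0 mother. The 2 replicates differed by 0.26 log2 units in ExE and by 0.23 in ExC, but by 0.66 in CxE and by 0.60 in CxC, all on the log2(FPKM + 1) scale. Among 3726 tested genes within 1.5 fold of EIN2 in mean level, the median replicate difference was 0.22, 0.21, 0.18 and 0.34 in the same order of crosses. The replicate difference of EIN2 was wider than that of 56.7% of such genes in ExE, 53.0% in ExC, 94.6% in CxE and 76.1% in CxC.

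The number of fragments behind each value was estimated. Low FPKM values step in units of single fragments, which gave a relative depth per library of 0.523 to 1.58. From it the EIN2 values were estimated to rest on 111 and 214 fragments in ExE and 142 and 110 in ExC. The CxE values rested on about 176 and 318 fragments and the CxC values on about 107 and 428. The exact Poisson 95% interval was 26.9 to 36.4 FPKM for CxE replicate 1 and 44.7 to 55.8 FPKM for replicate 2, and these did not overlap. In CxC the intervals were 29.3 to 43.2 FPKM for replicate 1 and 49.8 to 60.3 FPKM for replicate 2. The intervals of the 2 replicates overlapped in ExE, at 16.2 to 23.7 and 20.6 to 27.1 FPKM, and in ExC, at 22.0 to 30.8 and 18.2 to 26.7 FPKM. Across mothers, the interval of ExC replicate 1 overlapped those of CxE replicate 1 and CxC replicate 1. That of ExE replicate 2 overlapped that of CxE replicate 1. At its edge, the gap between the mothers was thus within counting error.

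The first question was whether the EIN2 transcript follows the genotype of the mother. Over both fathers, EIN2 averaged 22.9 ± 2.72 FPKM with an ein2-5 mother and 43.0 ± 11.2 FPKM with a Col-0 mother (SD, n = 4 each). The maternal effect was -0.85 ± 0.20 (log2, SE; 95% interval -1.32 to -0.38), which leaves 55.5% of the level. The exact two-sided permutation test of 4 against 4 libraries gave p = 0.0286, the smallest that 70 splits allow. Permuted within fathers, as the crossed design asks, it gave p = 0.0556, the smallest that 36 splits allow, and without any 1 of the 4 ein2-5 mother libraries the exact permutation p was 0.0571. Over all 19719 genes tested with limma, the unadjusted p of 0.00308 ranked 78th, and the Benjamini-Hochberg adjusted p was 0.69, so EIN2 was not called. No gene was called for the maternal effect (0 of 19719, 0.0%). At an unadjusted p under 0.05, 410 genes were lower (2.08%) and 987 higher (5.01%).

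Of the tested genes, 234 (1.19%) had all 4 libraries of ein2-5 mothers below all 4 of Col-0 mothers. EIN2 had the 27th largest decrease among these 234. Among the 3726 genes of similar level, 52 (1.40%) were separated by mother in that direction, and 13 counting EIN2 itself (0.349%) had a maternal change at least as low as that of EIN2. The median maternal change of all tested genes was 0.04.

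The maternal difference was of like size with either father. With an ein2-5 father, ExE differed from CxE by -0.85 ± 0.28 (limma adjusted p = 0.79). With a Col-0 father, ExC differed from CxC by -0.85 ± 0.28 (limma adjusted p = 1). The interaction, which is the difference between these differences, was 0.00 ± 0.40 with a 95% interval of -0.93 to 0.93 (limma adjusted p = 1.00), a range too wide to show that the 2 were alike. Each rested partly on 1 library: ExE against CxE was -0.52 without CxE replicate 2 (limma unadjusted p = 0.14), and ExC against CxC was -0.55 without CxC replicate 2 (limma unadjusted p = 0.12).

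The second question was the genotype of the father. EIN2 averaged 31.2 ± 13.5 FPKM with an ein2-5 father and 34.7 ± 14.6 FPKM with a Col-0 father (SD, n = 4 each). The paternal effect was -0.15 ± 0.20 with a 95% interval of -0.62 to 0.31 (limma adjusted p = 0.89), and the exact permutation test gave p = 0.69. Permuted within mothers, as the crossed design asks, the exact test gave p = 0.44 over 36 splits. No gene was called for the paternal effect by limma (0 of 19719, 0.0%), while 204 were lower (1.03%) and 995 higher (5.05%) at an unadjusted p under 0.05. All libraries of ein2-5 fathers lay below all those of Col-0 fathers for 0.72% of tested genes and above them for 2.66%; EIN2 was in neither set. The ein2-5 father went with a difference of -0.15 ± 0.28 on an ein2-5 mother (ExE against ExC, limma adjusted p = 0.93) and of -0.16 ± 0.28 on a Col-0 mother (CxE against CxC, limma adjusted p = 1). Its direction on the Col-0 mother depended on single libraries, turning to 0.15 without CxC replicate 2 and to 0.17 without CxE replicate 1.

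**Figure D2:**
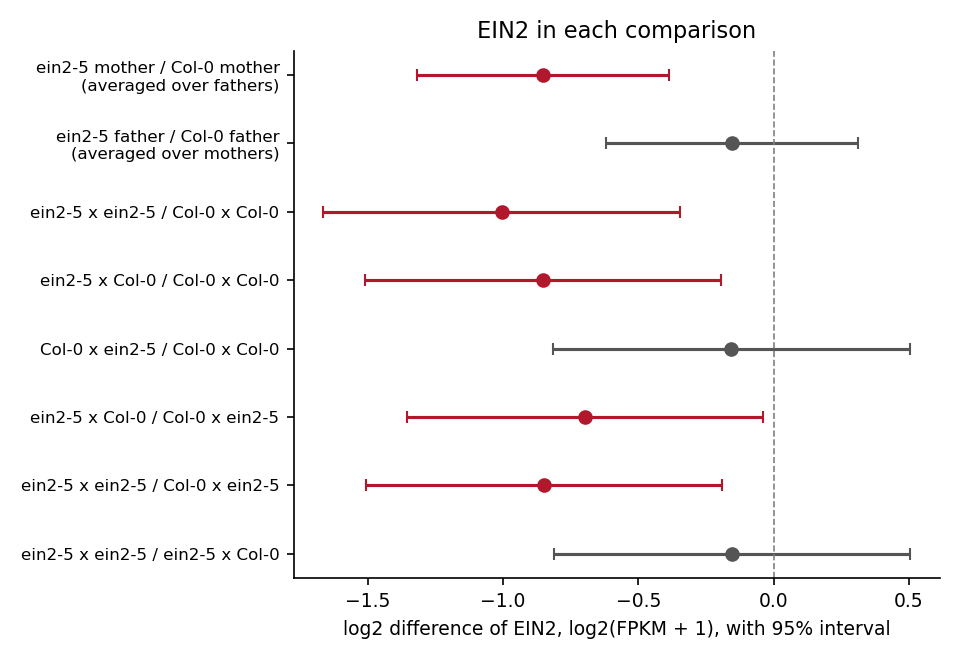
Log2 difference of EIN2 on the log2(FPKM + 1) scale (x axis), first-named group minus second, with the 95% interval of the limma fit, for each comparison (y axis). The 5 comparisons in red set an ein2-5 mother against a Col-0 mother, or both mutant parents against none, and lie at -0.70 to -1.005; the 3 in grey share the mother and lie at -0.15 to -0.16.

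By number of mutant copies, the EIN2 mean was 45.3 FPKM at 0 copies, 40.7 at 1, 24.2 at 2 and 21.7 at 3. The means thus had the order of the copies. A linear term gave -0.37 ± 0.09 log2 units per mutant copy (limma unadjusted p = 0.00148, adjusted p = 0.25), with 0 of 19719 genes called (0.0%). The 3 steps were unequal in size: -0.16 ± 0.28 for 1 copy against 0, -0.70 ± 0.28 for 2 against 1 and -0.15 ± 0.28 for 3 against 2. The difference between the steps was not tested. The middle step is also the change from a Col-0 mother to an ein2-5 mother, so copy number and mother cannot be told apart at that step. In the order of levels, neighbouring crosses with the same mother overlapped, and the 2 reciprocal hybrids, ExC at 22.2 to 26.2 FPKM and CxE at 31.4 to 50.03 FPKM, did not (limma unadjusted p = 0.0408, adjusted p = 1). Without CxE replicate 2 the difference between the hybrids was -0.37 (limma unadjusted p = 0.28). Both mutant parents against none gave -1.005 ± 0.28 (limma adjusted p = 0.35, with 2 of 19719 genes called, 0.0101%).

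**Figure D3:**
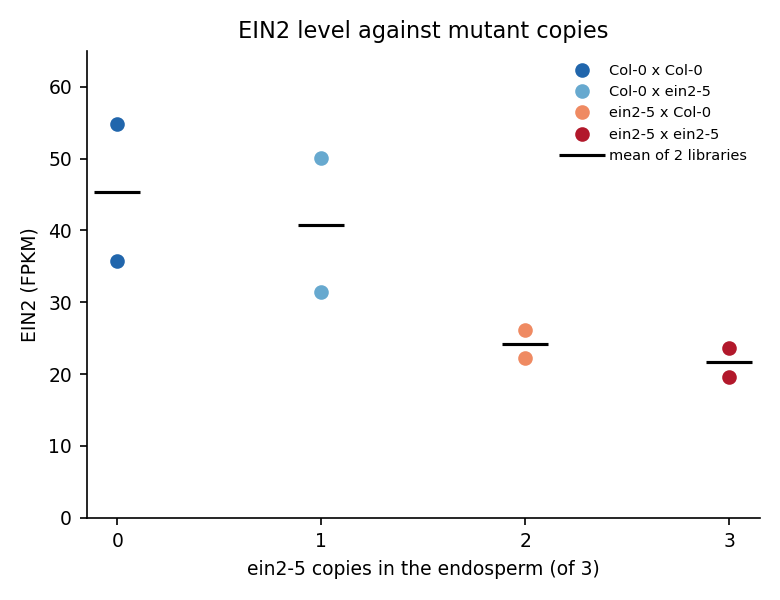
EIN2 level in FPKM (y axis) against the number of ein2-5 copies among the 3 genome copies of endosperm (x axis). Points are libraries and black bars the means of 2 libraries, at 45.3, 40.7, 24.2 and 21.7 FPKM from 0 to 3 copies, with the widest step between 1 and 2 copies.

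EIN2 was also set against genes within the same library, which is independent of library scaling. EIN2 ranked above 53.1% and 54.8% of tested genes in ExE, and above 61.3% and 58.2% in ExC. It ranked above 65.1% and 75.3% in CxE and above 70.9% and 76.2% in CxC. The ranks were separated by mother as the levels were.

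The ratio of EIN2 to CTR1, the kinase directly upstream of it, was 0.683 and 0.698 in ExE and 0.858 and 0.719 in ExC. It was 0.955 and 1.46 in CxE and 1.29 and 1.67 in CxC. EIN2 was thus below CTR1 in every library with an ein2-5 mother, and above it in 3 of 4 with a Col-0 mother. Against EIN3, the transcription factor downstream, the ratio was 0.955 to 1.37 with an ein2-5 mother and 1.15 to 1.81 with a Col-0 mother, and these ranges overlapped.

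Of the annotated genes on either side of EIN2 on chromosome 5, IDH-V and ADK2 had smaller maternal effects than EIN2. IDH-V (AT5G03290), an isocitrate dehydrogenase subunit gene 569 nt downstream, averaged 70.5 FPKM with an ein2-5 mother and 71.6 FPKM with a Col-0 mother, a maternal effect of -0.02 ± 0.13. ADK2 (AT5G03300), an adenosine kinase gene 2956 nt downstream, averaged 82.9 and 88.2 FPKM, an effect of -0.09 ± 0.11. The ratio of EIN2 to IDH-V was 0.274 to 0.388 with an ein2-5 mother and 0.422 to 0.683 with a Col-0 mother, with no overlap. Of the upstream genes, LOG6 was listed at 0 in every library, LAC11 was above 0 in 1 library alone, at 0.425 FPKM, and AT5G03250 averaged 2.92 and 2.90 FPKM with an ein2-5 and a Col-0 mother. AT5G03285, an annotated noncoding RNA of 204 nt that begins 109 nt past the end of EIN2 on the same strand, was listed at 0 to 230 FPKM, with overlapping groups and a maternal effect of 2.86 ± 1.92 (limma adjusted p = 0.77), larger in size and in error than that of EIN2. Its length is under the correction of 240 nt that fitted the fragment steps, so its values rest on very few fragments.

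Depth and other tissues were set beside the maternal difference. In each of the 4 crosses the library with the greater estimated depth also had the higher EIN2 value. With depth as a covariate the maternal effect was -0.94 ± 0.16 (limma adjusted p = 0.32). Without CxC replicate 1, the shallowest library, it was -1.002 ± 0.20. The paternal effect with depth as a covariate was -0.34 ± 0.17 (limma adjusted p = 0.62).

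All 11 endosperm markers were above 0 somewhere, and their summed level was 919 to 1245 FPKM with an ein2-5 mother and 762 to 992 FPKM with a Col-0 mother. Most of this sum was HDG3, SUC5, PHE1 and ZOU. IKU2 and MINI3 averaged 0.17 and 0.47 FPKM and were not tested. Of the 9 endosperm markers that were tested, 8 were higher and 0 called by limma, with a median maternal change of 0.42. ZOU was the 1 that was lower, at -0.15 ± 0.14. The 19 seed coat markers, mostly genes of tannin synthesis in maternal tissue, were all present, at summed levels of 643 to 1734 FPKM with an ein2-5 mother and 732 to 971 FPKM with a Col-0 mother. Their median maternal change was also 0.42, against 0.04 for all tested genes, with 17 of 19 higher and 0 called by limma. At an unadjusted limma p under 0.05, 8 of 19 seed coat and 3 of 9 endosperm markers were higher by mother and 0 lower. Of all tested genes, 5.01% were higher and 2.08% lower. For ExE against CxC, 14 of 19 and 6 of 9 were higher and 0 lower, where 8.44% and 2.13% of all tested genes were. By father, the seed coat median was 0.49 with 17 of 19 higher, and the endosperm median 0.33 with 6 of 9 higher. All tested genes had a paternal median of 0.08. At an unadjusted limma p under 0.05 by father, 6 of 19 seed coat and 3 of 9 endosperm markers were higher and 0 lower. Of all tested genes, 5.05% were higher and 1.03% lower. The seed coat sum was 1169 to 1734 FPKM in ExE and 643 to 1130 FPKM in ExC. The 15 embryo markers, of which WUS was at 0 in every library, summed to 599 to 753 FPKM and 681 to 752 FPKM. Most of the embryo sum was LEC1, which averaged 406 and 411 FPKM with an ein2-5 and a Col-0 mother and is also known from endosperm, so the sum does not by itself show embryo RNA. The part of tissue composition in the EIN2 difference was not tested, and in bulk tissue fewer cells of a type and less RNA per cell cannot be told apart.

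The other genes of the pathway were taken as 26 genes from receptors to transcriptional targets, of which 23 passed the filter of at least 1 FPKM in at least 2 libraries. By mother, 0 of 23 were called by limma against 0.0% of all tested genes. At an unadjusted p under 0.05, 2 of 23 were lower and 2 higher, where 2.08% and 5.01% of all genes were. Their median maternal change was 0.09, against 0.04 for all tested genes, and their changes ran from -0.80 to 1.10. By father 0 of 23 had an unadjusted p under 0.05, where 1.03% of all tested genes were lower and 5.05% higher. None of the 23 was called by father. Per mutant copy, 0 were lower and 2 of 23 higher at an unadjusted p under 0.05, where 2.73% and 8.52% of all tested genes were. With both parents mutant against none, again 0 were lower and 2 higher, where 2.13% and 8.44% of all were.

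The 5 receptors, which bind ethylene and hold the pathway off in its absence, differed in level more than in their response to the cross. ERS1 measured 35.6 and 42.6 FPKM in ExE and 44.9 and 47.5 FPKM in ExC, against 47.9 and 61.9 FPKM in CxE and 39.7 and 64.8 FPKM in CxC. The maternal effect was -0.30 ± 0.17 (limma adjusted p = 0.74), with overlapping groups. ERS2 averaged 37.3 and 35.1 FPKM with an ein2-5 and a Col-0 mother, ETR1 15.2 and 13.9 FPKM, ETR2 13.6 and 16.96 FPKM, and EIN4 3.75 and 2.95 FPKM. None of the 5 had an unadjusted p under 0.05 by mother.

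RTE1, which acts on the receptor ETR1, was the most abundant gene of the pathway, at 156 FPKM with an ein2-5 mother and 171 FPKM with a Col-0 mother. RAN1, the copper transporter that loads receptors with their cofactor, measured 11.5 and 14.6 FPKM in ExE and 9.86 and 14.0 FPKM in ExC. It measured 15.5 and 18.7 FPKM in CxE and 17.4 and 17.5 FPKM in CxC. RAN1 was the 1 pathway gene of 23 with all ein2-5 mother libraries below all Col-0 mother libraries, where 1.19% of all tested genes were, with a maternal effect of -0.45 ± 0.18 (limma adjusted p = 0.69). CTR1 averaged 31.0 and 31.9 FPKM with an ein2-5 and a Col-0 mother, a difference of -0.04 ± 0.12.

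The F-box proteins ETP1 and ETP2 bring about degradation of the EIN2 protein. ETP1 averaged 50.7 FPKM with an ein2-5 mother and 53.5 FPKM with a Col-0 mother, and ETP2 21.1 and 17.6 FPKM, with maternal effects of -0.09 ± 0.13 and 0.27 ± 0.17. Neither was called.

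EIN3 and EIL1, the main transcription factors below EIN2, were both lower on average with an ein2-5 mother. EIN3 measured 16.5 and 24.8 FPKM in ExE and 19.0 and 22.2 FPKM in ExC, against 27.2 and 30.9 FPKM in CxE and 19.8 and 32.2 FPKM in CxC. The effect was -0.39 ± 0.20 (limma adjusted p = 0.74), and CxC replicate 1 fell within the range of the ein2-5 mothers. EIL1 was far less abundant, at 1.47 FPKM with an ein2-5 mother and 3.24 FPKM with a Col-0 mother, an effect of -0.80 ± 0.32 (limma unadjusted p = 0.0364, adjusted p = 0.69). EIL2, of the same family, had 1.66 and 0.497 FPKM, with no overlap between mothers and an effect of 0.85 ± 0.32 (limma unadjusted p = 0.0275, adjusted p = 0.69), at levels of a few fragments. The size of these low genes' effects depended on the pseudocount: with 0.1 and with 5 in place of 1, it was -1.15 and -0.35 for EIL1 and 1.97 and 0.28 for EIL2. EIL2 was the 1 pathway gene of 23 separated upward by mother, where 2.26% of all tested genes were. EIL3 averaged 13.5 and 15.2 FPKM.

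EBF1 and EBF2, the F-box proteins that direct degradation of EIN3 and EIL1 and are themselves induced by ethylene, had maternal effects of 0.11 ± 0.14 and -0.23 ± 0.15. EBF1 averaged 43.6 and 40.8 FPKM with an ein2-5 and a Col-0 mother, and EBF2 33.6 and 39.6 FPKM. EIN5, the exoribonuclease that takes part in turnover of EBF mRNAs, averaged 25.1 and 25.2 FPKM.

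Of the 9 genes listed as targets, ERF1 and ESE1, ethylene response factors, were listed at 0 in every library, and EDF3 did not pass the filter. The 6 that passed had a median maternal change of 0.54, against 0.04 for all tested genes, and 0 were called, where 0.0% of all tested genes were. At an unadjusted p under 0.05, 1 of the 6 was higher, where 5.01% of all tested genes were. EDF1, a DNA-binding repressor of flowering induced by ethylene, was at 5.75 and 5.39 FPKM in ExE and 4.48 and 1.64 FPKM in ExC. It was at 2.18 and 0.639 FPKM in CxE and at 2.71 and 0.521 FPKM in CxC, an effect of 1.10 ± 0.43 (limma unadjusted p = 0.0349, adjusted p = 0.69) that was 1.61 with a pseudocount of 0.1 and 0.51 with 5. EDF2, EDF4 and HLS1, a regulator of the apical hook, each averaged under 2 FPKM for either mother. ORE1, a senescence regulator, averaged 39.4 and 35.5 FPKM with an ein2-5 and a Col-0 mother, and CHI-B, a basic chitinase, 9.80 and 8.10 FPKM. None of the 6 tested targets was lower on average with an ein2-5 mother. However, EDF2, EDF4 and HLS1 were at 0 in some libraries, and the CHI-B effect went as low as -0.065 without single libraries.

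**Figure D4:**
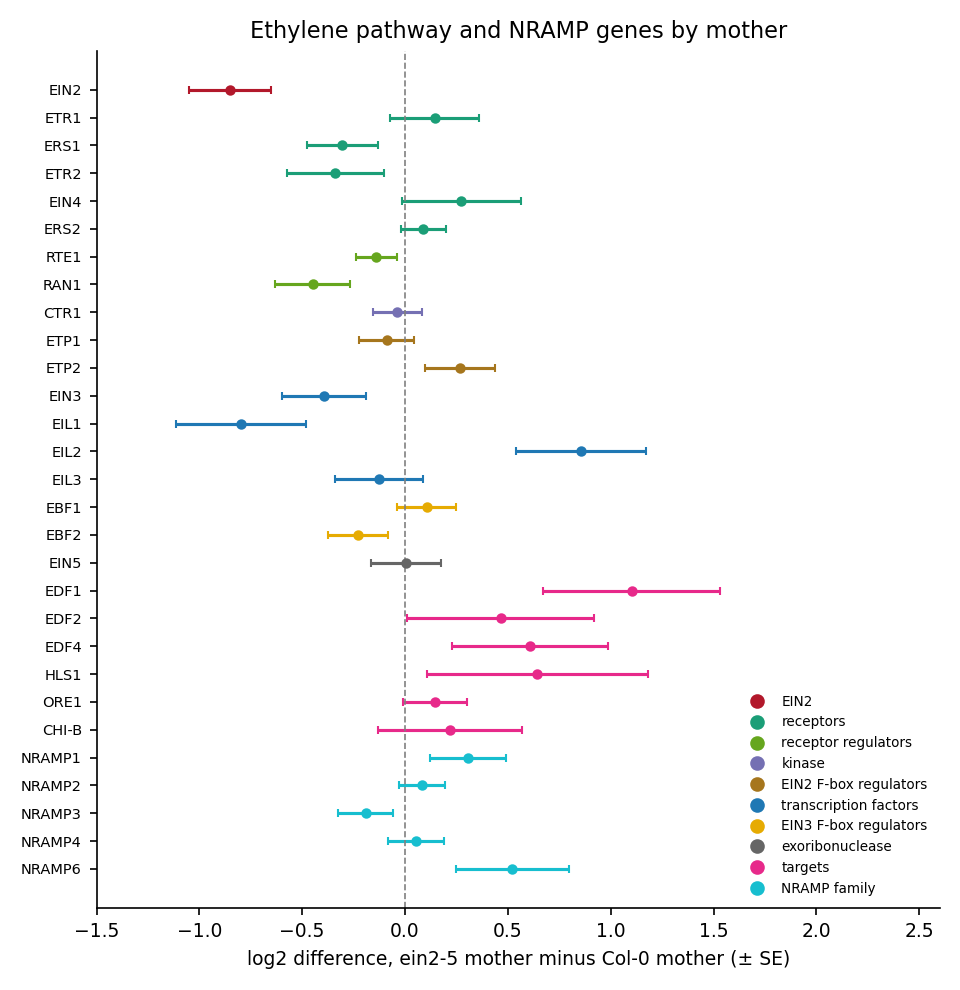
Log2 difference between libraries with an ein2-5 mother and those with a Col-0 mother (x axis, ± SE of the limma fit, 4 libraries each) for EIN2, 23 pathway genes and 5 NRAMP genes (y axis, coloured by role). EIN2 is at -0.85, EIL1 at -0.80 and EDF1 at 1.10; the order of the low genes depends on the pseudocount (with 0.1, EIL1 at -1.15 is below EIN2 at -0.87, and HLS1 at 1.98 above EDF1 at 1.61), and no gene passed the threshold over all genes.

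The NRAMP genes, metal transporters whose membrane part EIN2 resembles, were compared as the nearest family. Of 6 genes, 5 were tested and 0 were called by mother or by father, where 0.0% of all tested genes were. Their median maternal change was 0.08, against 0.04 for all tested genes. NRAMP3, of the vacuolar membrane, averaged 107 FPKM with an ein2-5 mother and 122 FPKM with a Col-0 mother, NRAMP4 49.9 and 47.7 FPKM, NRAMP2 29.9 and 28.2 FPKM, and NRAMP1 13.8 and 10.9 FPKM. NRAMP6 averaged 3.79 and 2.43 FPKM by mother, with 4.36 FPKM in ExE and 1.43 FPKM in CxC. The difference of ExE from CxC was 1.14 ± 0.39 (limma unadjusted p = 0.0186, adjusted p = 0.41). At an unadjusted p under 0.05, 8.44% of all tested genes were higher in that comparison. NRAMP5 was above 0 in 3 libraries and did not pass the filter.

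Genes with a profile like that of EIN2 were ranked by Pearson r over the 8 libraries, on log2(FPKM + 1), among 12235 other genes with a mean of at least 10 FPKM. The 8 points share depth and cross with EIN2, so r is a description. It was 0.9 or more for 41 genes and -0.9 or less for 31. The highest r was 0.97 for ALPHA-VPE (AT2G25940; Spearman rho 0.98), which encodes a vacuolar processing protease. ALPHA-VPE measured 30.1 and 35.4 FPKM in ExE and 33.1 and 33.0 FPKM in ExC, against 42.7 and 53.5 FPKM in CxE and 47.0 and 72.1 FPKM in CxC. As for EIN2, the groups by mother did not overlap, where 1.19% of all tested genes were separated in that direction. Choosing genes by r with EIN2 over the same libraries favours such a separation.

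The others among the 8 were AT1G74510, a kelch-repeat protein gene, AT3G46890, annotated as a maternal effect embryo arrest protein, OMTF3, a methyltransferase gene, the cyclin gene CYCA1;1, the adaptin family gene AT1G31730, AT5G13240, annotated as a transcription regulator, and BGLU29, a beta-glucosidase gene, at r of 0.94 to 0.95. AT3G46890 had the widest range, at 43.8 to 62.1 FPKM with an ein2-5 mother and 75.1 to 173 FPKM with a Col-0 mother. CYCA1;1 ranged over 31.2 to 36.4 FPKM and 38.0 to 47.3 FPKM. BGLU29 overlapped, at 61.3 to 80.2 FPKM and 78.3 to 108 FPKM. Without the 2 libraries farthest from the EIN2 median, r was 0.95 for ALPHA-VPE, 0.97 for AT3G46890, 0.98 for AT5G13240 and 0.77 for BGLU29.

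The most opposite profile was that of PWP2 (AT1G15440), a nucleolar protein of ribosome biogenesis, at r of -0.99. It measured 39.8 and 36.1 FPKM in ExE and 36.5 and 40.5 FPKM in ExC, against 32.6 and 26.4 FPKM in CxE and 29.5 and 25.3 FPKM in CxC. PnsL4, a subunit of the chloroplast NDH complex, AT4G24750, a rhodanese family gene, and AT1G16445, a methyltransferase family gene, followed at r of -0.95 to -0.97. None of these 4 stayed among the lowest 4 by Spearman rho, after median-ratio scaling or after quantile normalization. Of the pathway genes with a mean of at least 10 FPKM, ERS1 was most like EIN2 (r of 0.83, rank 209). EIN3 (0.78, rank 395) and RAN1 (0.75, rank 514) followed. By Spearman rho the order differed, with RAN1 first (0.83), then EIN3 (0.74), ETR2 (0.71) and ERS1 (0.69).

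**Figure D5:**
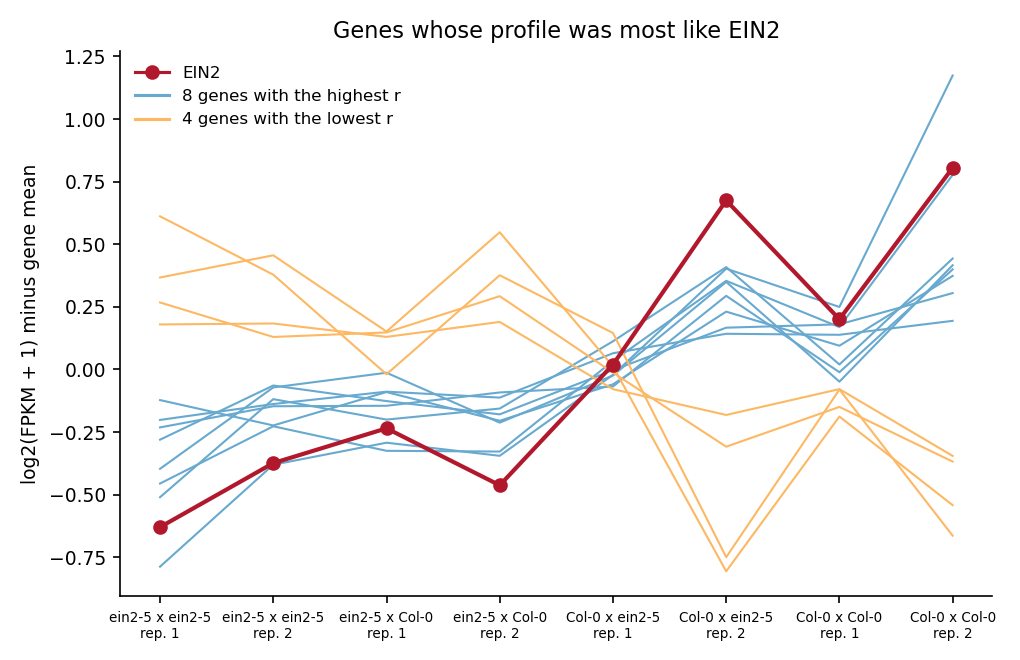
Log2(FPKM + 1) of each gene minus its mean over the 8 libraries (y axis), for each library (x axis, ordered by cross). EIN2 is in red, the 8 genes with the highest r (0.94 to 0.97) in blue and the 4 with the lowest r (-0.95 to -0.99) in orange; lines join libraries for legibility only, and EIN2 has a wider range than most of them.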

How the data were processed

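The deposited table holds FPKM per gene for 8 libraries, computed by the authors with TopHat2 2.1.1, SAMtools 1.5 and Cufflinks 2.2.1 on TAIR10, per the submitters' processing notes; options and annotation are not given in the sources used here. Library totals were 965922 to 1068714 FPKM. No counts accompany them. Relative depth was estimated from low values of single-transcript genes, of which 98.5% of 2655 were whole multiples of the gene's smallest depth-scaled value within 0.06 of a fragment, and EIN2 fragments were then estimated with the TAIR10.1 transcript length. PCR duplicates are not known, so intervals cover counting error only. Positions and lengths come from TAIR10.1, a later release than the build named; no coordinates were transferred.

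Values were analysed as log2(FPKM + 1), which understates changes of low genes. Genes with at least 1 FPKM in at least 2 libraries were kept (19719). The 4 cross means were fitted with limma 3.58.1 in R 4.3.3 (trend, two-sided), leaving 4 residual degrees of freedom plus 3.72 from moderation, with Benjamini-Hochberg adjustment over all genes and calls at 0.05. Copy number was a separate linear fit. On simulated data the fit recovered 66% of 100 maternal changes of 1 log2 unit and 93% of 100 changes of 2 log2 units. It made 11 false calls among the unchanged genes of the 19719. The simulated noise was independent between libraries, the largest gene spreads were capped, and only genes above a set level were changed. Real libraries share depth effects that were not simulated, so recovery in these data may be lower. EIN2 alone also had an exact permutation test. Genes were named by rule: EIN2, fixed pathway and family lists, the 8 highest and 4 lowest r, and 3 neighbours on each side by position and by level. The gene and the lists were chosen with earlier results of these data known.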

Additional observations from a re-analysis of the deposited data

Results flagged for a closer look

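Within the 4 libraries that share a mother, 85 sets of values of the named genes were checked for a library that stood apart by a gap, relative to the range of the set, above Dixon's 95% critical value, and 6 were found; chance gives about 1 in 20. None was EIN2. CHI-B reached 17.04 FPKM in 1 ein2-5 mother library, where the next was 8.29. NRAMP3 was lowest in 1 ein2-5 mother library at 84.9 FPKM, where the next was 112, and AT4G24750 at 66.7 FPKM, where the next was 69.0. Among Col-0 mother libraries the highest stood apart for NRAMP2 at 31.1 FPKM, where the next was 27.3. The same held for NRAMP4 at 53.6 FPKM, where the next was 46.5, and for EDF2 at 1.30 FPKM with the other 3 at 0. For EDF2 the 3 values at 0 fix the gap at the whole range, so its check could not fail. Each set joins both crosses of a mother, so the rate of 1 in 20 is approximate.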

How the results depend on the processing

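Under 17 other settings, EIN2 was called in no comparison. Its maternal effect stayed negative, at -0.69 to -1.01 without single libraries and -0.76 to -0.94 otherwise (adjusted p of 0.30 to 1.00), and the change per copy at -0.31 to -0.45 (adjusted p of 0.092 to 0.70). The labels do not say whether replicate numbers pair the libraries. Deviations of same-numbered libraries correlated weakly, at 0.01 to 0.14, which cannot settle how the libraries were collected. With a replicate block the maternal effect was -0.85 ± 0.17 (limma adjusted p = 0.38).

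The exact permutation p by mother was 0.0556 within fathers, the smallest that 36 splits allow, and 0.0286 to 0.0571 without single libraries; by father it was 0.34 to 0.97. The paternal effect ran from -0.32 to 0.0096 without single libraries, the CxE difference from CxC from -0.48 to 0.17. With depth as a covariate the paternal effect was -0.34 ± 0.17 (limma adjusted p = 0.62). After quantile normalization it was -0.27 ± 0.17 (limma adjusted p = 0.89). The interaction was -0.023 with median-ratio scaling, -0.11 with quantile normalization, -0.072 with depth as a covariate and -0.33 to 0.33 without single libraries. The cause was not tested.

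Genes called by mother numbered 1 without a variance trend and 0 to 12 without single libraries (12 without CxC replicate 2, 6 without ExC replicate 2), and by father 0 to 10 (10 without CxC replicate 2). No pathway gene was called in any setting. Near 0, the maternal sign of 7 genes turned without single libraries: ETR1 (-0.020 to 0.31), CTR1 (-0.10 to 0.021), EIL3 (-0.26 to 0.011), EBF1 (-0.034 to 0.24), CHI-B (-0.065 to 0.50), NRAMP4 (-0.060 to 0.17) and EIN5 (-0.15 to 0.16), the last also with median-ratio scaling (-0.037), quantile normalization (-0.050) and depth (-0.042). Of the 8 genes most like EIN2, 2 were among the first 8 by Spearman rho, 5 after median-ratio scaling and 3 after quantile normalization. Of the 4 most opposite, 0 kept their place under each of these, and 3, 3 and 0 were among the lowest 50. Fragment numbers of 107 to 428 limit the precision of EIN2 in single libraries.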

Other observations

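In the order of mean level, EIN2 ranked 6699th of 19719 tested genes at 33.0 FPKM. AT1G71090, ECT5, MEE14, AT5G52880, EMB2759 and AT3G10350 had the nearest means. MEE14 was at 28.3 to 43.8 FPKM with an ein2-5 mother and at 30.6 to 35.9 FPKM with a Col-0 mother. ECT5, a reader of methylated adenosine in RNA, was at 26.2 to 32.0 FPKM and 26.0 to 45.6 FPKM. None of the 6 was separated by mother, where 1.19% of all tested genes were separated downward and 2.26% upward.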
